A study of Mus musculus with 4 samples.

Results

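The genes described here encode 10 structural and matricellular proteins of the extracellular matrix: the glycoproteins fibronectin (Fn1), thrombospondin 1 (Thbs1), thrombospondin 2 (Thbs2), tenascin C (Tnc), SPARC (Sparc) and periostin (Postn), and the proteoglycans versican (Vcan), perlecan (Hspg2), biglycan (Bgn) and decorin (Dcn). They were taken by symbol from a table of 56748 genes, and each of the 10 symbols was found in 1 row. Read counts came from mouse HT22 cells, an immortalised line of hippocampal neuronal origin. A line made to overexpress MEIS2, a homeodomain transcription factor, gave 2 libraries, and a control line gave the other 2. Both lines were HT22; the sources used here do not give the vector, the promoter that drives MEIS2, what the control line carries, any treatment or whether a line is 1 clone. Nothing in the labels ties the 2 libraries of a line to separate cultures, so p-values measure the spread between libraries alone, and that spread may be technical.

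Fibronectin is secreted as a dimer that cells assemble into fibrils through integrins, and other matrix proteins bind to those fibrils. Thrombospondins, tenascin C, SPARC and periostin are called matricellular, since they change how cells contact the matrix more than they bear load. A proteoglycan is a core protein with long sulfated sugar chains: versican carries chondroitin sulfate and binds hyaluronan, perlecan carries heparan sulfate in basement membranes, and biglycan and decorin are small leucine-rich proteoglycans that bind collagen fibrils. In the developing brain, versican and tenascin C are part of the matrix through which cells and axons grow, and thrombospondins from astrocytes promote synapse formation.

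Total counts were 15705070 and 15014017 in MEIS2 replicates 1 and 2 and 16903967 and 16445575 in control replicates 1 and 2. Meis2 itself had 331.7 and 331.8 CPM (counts relative to each library's total, scaled by TMM) in the MEIS2 line, against 15.9 and 19.6 CPM in the control line, and was the 1 gene of 12802 tested to pass a Benjamini-Hochberg threshold of 0.05 by edgeR's quasi-likelihood method (adjusted p = 6.43e-05). The libraries of the MEIS2 line stood far apart: the median absolute deviation of log2 differences over genes, scaled as an SD, was 0.777 between MEIS2 replicates 2 and 1, 0.477 between control replicates 2 and 1, and 0.338 between MEIS2 replicate 1 and control replicate 2. Few neuron markers reached 1 CPM in every library. Of 15 listed, 8 had 0 counts in all 4 libraries, among them Rbfox3, Nefl, Snap25 and Dcx. The 3 that reached 1 CPM in every library were Tubb3, Map2 and Camk2a. Their means were 14.5, 13.2 and 2.11 CPM in the MEIS2 line and 19.2, 6.92 and 2.25 CPM in the control line. Of 14 fibroblast and mural cell markers 10 reached 1 CPM in every library, while Thy1 and Lum were at 0. That list summed to 4020 and 4098 CPM in the MEIS2 line and 3389 and 3770 CPM in the control line, led per length by Vim, which neural and many other cultured cells also express. Its part in the differences below was not tested. Astrocyte, oligodendrocyte, endothelial and epithelial markers each summed to under 3 CPM in every library, and of the microglia list Tmem119 made up nearly all of 19.3 to 35.1 CPM while Cx3cr1, P2ry12 and Itgam were at 0.

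The 10 genes together took 0.268% and 0.329% of all counts in MEIS2 replicates 1 and 2, and 0.236% and 0.258% in control replicates 1 and 2. Compared per length, as TMM-scaled CPM per kilobase of the gene length given in the table, their means over the 4 libraries ran from 407.1 for Sparc to 0.00342 for Postn. Sparc stood at the top with 378.6 ± 15.6 CPM per kilobase in the MEIS2 line and 435.6 ± 3.27 in the control line (SD, n = 2 each). Fn1 came next with 64.6 ± 11.1 CPM per kilobase in the MEIS2 line and 37.8 ± 3.90 in the control line, followed by Hspg2 with 34.0 ± 3.26 in the MEIS2 line and 30.7 ± 1.68 in the control line. Within each line the libraries of these 3 genes did not overlap with each other. Thbs1 was the next, at 9.43 ± 2.89 CPM per kilobase in the MEIS2 line and 4.39 ± 0.567 in the control line.

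**Figure D1:**
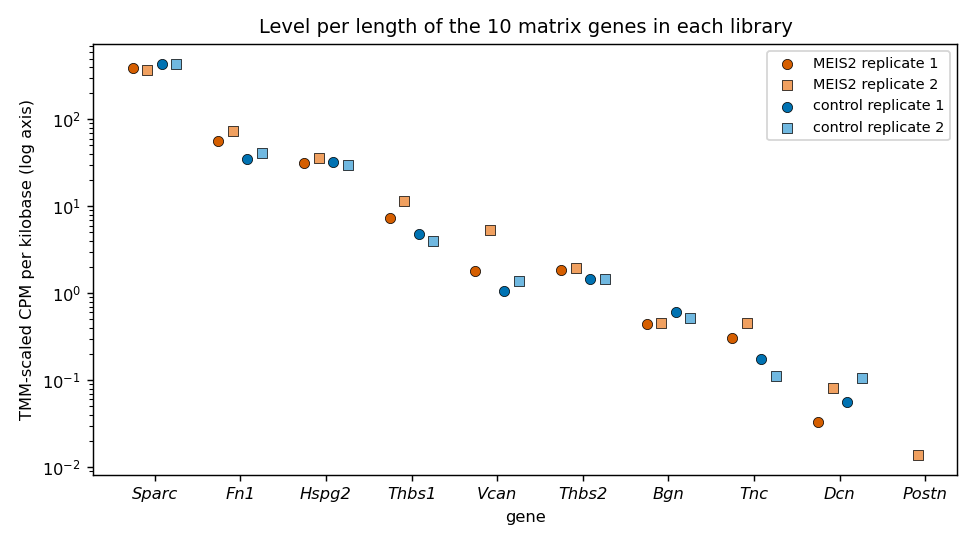
Level of each of the 10 genes in each library, as TMM-scaled CPM per kilobase on a log axis; circles are replicate 1 and squares replicate 2, orange for the MEIS2 line and blue for the control line. Sparc lies highest in every library and Postn is drawn in 1 library, at 0.0137, since values of 0 have no place on a log axis.

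Lower down, some neighbours in this order were not separated. Vcan had 1.78 and 5.33 CPM per kilobase in MEIS2 replicates 1 and 2, on both sides of Thbs2 with 1.85 and 1.96. In the control line Vcan had 1.07 and 1.38 CPM per kilobase, below Thbs2 with 1.45 and 1.47. Tnc was below Bgn in every library: it had 0.305 and 0.452 CPM per kilobase in MEIS2 replicates 1 and 2, where Bgn had 0.441 and 0.459, and 0.176 and 0.111 in control replicates 1 and 2, where Bgn had 0.608 and 0.524. The ranges of Tnc and Bgn overlapped in the MEIS2 line and not in the control line. Dcn stood at 0.0329 and 0.0816 CPM per kilobase in the MEIS2 line and at 0.0558 and 0.105 in the control line, and Postn was near the limit of detection. In bulk RNA, fewer cells making a transcript and less of it per cell cannot be told apart.

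Because MEIS2 binds DNA, the windows around the start sites of these genes were read for its core motif. RefSeq windows on GRCm38.p6, with 250 bases before and 50 after a start site, were found for 7 of the 10 genes (9 windows, as Tnc and Postn have a second start site each and the windows of Tnc overlap); Fn1, Thbs1 and Dcn have no entry. The bases before the start site of 4 genes are shown. Vcan and Hspg2 are proteoglycan genes of nearly equal length with fitted log2 fold changes of 1.54 and 0.15, neither past the threshold. Tnc is the member whose window holds the MEIS core, and Sparc is the most abundant member. Capitals mark every GGGCGG (the GC box) and TATAAA (the TATA box), read on both strands.
Vcan: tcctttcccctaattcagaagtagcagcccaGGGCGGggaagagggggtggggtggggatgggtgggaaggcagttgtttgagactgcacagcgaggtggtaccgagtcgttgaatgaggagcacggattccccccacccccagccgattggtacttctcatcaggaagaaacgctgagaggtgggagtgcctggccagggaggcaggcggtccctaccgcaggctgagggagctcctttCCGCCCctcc
Hspg2: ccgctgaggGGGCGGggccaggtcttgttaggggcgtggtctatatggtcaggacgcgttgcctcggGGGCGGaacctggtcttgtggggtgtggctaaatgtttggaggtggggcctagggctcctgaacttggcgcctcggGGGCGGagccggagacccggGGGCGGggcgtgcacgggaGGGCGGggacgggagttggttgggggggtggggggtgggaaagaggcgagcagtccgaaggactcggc
Tnc: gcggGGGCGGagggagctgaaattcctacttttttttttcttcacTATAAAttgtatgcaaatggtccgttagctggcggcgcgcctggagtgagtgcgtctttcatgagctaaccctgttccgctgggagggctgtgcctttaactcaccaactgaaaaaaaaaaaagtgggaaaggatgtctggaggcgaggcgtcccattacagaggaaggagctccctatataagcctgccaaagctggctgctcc
Sparc: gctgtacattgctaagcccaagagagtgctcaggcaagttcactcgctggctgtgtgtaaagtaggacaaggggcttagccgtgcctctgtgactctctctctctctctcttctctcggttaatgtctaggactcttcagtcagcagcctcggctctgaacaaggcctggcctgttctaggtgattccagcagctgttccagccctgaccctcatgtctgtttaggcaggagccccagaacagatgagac
These lie at chr13:89742513-89742762, minus strand (Vcan), chr4:137468553-137468802, plus strand (Hspg2), chr4:64046937-64047186, minus strand (Tnc, the more downstream of its start sites) and chr11:55420081-55420330, minus strand (Sparc). The MEIS core TGACAG was in 1 of the 9 windows, that of Tnc shown, against 19.2% of 32851 windows in the table. It lies on the opposite strand from base 17 after the start site, at chr4:64046905-64046930 in these 26 bases, with the match in capitals.
Tnc: agcctgcctaCTGTCAcgcgtctctc
GC boxes were in 5 of the 9 windows (of Bgn, Hspg2, Tnc and Vcan), against 35.7% of all windows, and numbered 5 before the start site of Hspg2. TATA boxes were in 4 of the 9 windows (of Postn, Thbs2 and Tnc), against 13.6% of all windows. The match began at base -26 from the start site in Postn and at -126, on the opposite strand, in Thbs2. In Tnc it began at -126 or -205, depending on the start site. The overlapping windows of Tnc share the same GC box and TATA box. These are letter matches, and no binding was measured here.

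Fibronectin mRNA was higher in both MEIS2 libraries than in either control. Fn1 (ENSMUSG00000026193, chromosome 1, 71624679 to 71692359, minus strand; positions are those of the deposited table, for which the sources used here name no build) had 10371 and 14214 counts, or 663.8 and 846.5 CPM, in MEIS2 replicates 1 and 2, against 6299 and 7716 counts, or 410.0 and 474.4 CPM, in control replicates 1 and 2. The lines did not overlap, and MEIS2 replicate 2 was the highest. The log2 fold change was 0.77 (SE 0.32, 95% interval 0.09 to 1.46), which did not pass (adjusted p = 0.403, edgeR). Of all genes tested, 14.5% had a higher log2 fold change. Once each library's smooth dependence on gene length and on GC content was taken out, it was 0.34.

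Thrombospondins 1 and 2 are trimeric glycoproteins; thrombospondin 1 activates latent TGF-beta and binds CD47 and CD36, and both limit blood vessel growth. Thbs1 (chromosome 2, 117942357 to 117957614, plus strand) had 701 and 1170 counts, or 44.9 and 69.7 CPM, in MEIS2 replicates 1 and 2, against 447 and 394 counts, or 29.1 and 24.2 CPM, in control replicates 1 and 2. The lines did not overlap, with a log2 fold change of 1.10 (SE 0.35, 95% interval 0.34 to 1.86, adjusted p = 0.28 in edgeR's test), and 6.83% of tested genes stood higher. It was 0.71 without MEIS2 replicate 2 and 1.37 without MEIS2 replicate 1.

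Thbs2 (chromosome 17, 14885762 to 14914497, minus strand) differed far less. It had 202 and 231 counts, or 12.9 and 13.8 CPM, in MEIS2 replicates 1 and 2, against 156 and 167 counts, or 10.2 and 10.3 CPM, in control replicates 1 and 2. The lines did not overlap and replicates lay close together, yet the log2 fold change, 0.39 (SE 0.38, 95% interval -0.43 to 1.21, adjusted p = 0.688 in edgeR's test) had an interval that spans 0. Within a library, the level per length of Thbs1 was 4.0 and 5.84 times that of Thbs2 in MEIS2 replicates 1 and 2, and 3.30 and 2.72 times in control replicates 1 and 2. Ratios of this kind were computed for 6 pairs of members and for no pairs of other genes, so no share of pairs without overlap can be set beside them. With 2 libraries a line, an exact two-sided permutation test of a ratio cannot go below 0.333, which is the value it took here (0.5 adjusted over the 6 pairs). Tnc per length was 0.165 and 0.230 of Thbs2 in the MEIS2 line, against 0.121 and 0.0755 in the control line, again without overlap (exact permutation p = 0.333).

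Tnc, the gene of tenascin C, a hexameric glycoprotein of developing and injured tissue, was scarce. It had 37 and 59 counts, or 2.37 and 3.51 CPM, in MEIS2 replicates 1 and 2, against 21 and 14 counts, or 1.37 and 0.861 CPM, in control replicates 1 and 2 (chromosome 4, 63878022 to 63965252, minus strand). Every MEIS2 library was above every control, and the controls differed from each other as much as the MEIS2 libraries did. The log2 fold change was 1.40 (SE 0.55, 95% interval 0.22 to 2.58, adjusted p = 0.368 in edgeR's test), with 2.91% of tested genes higher. It stood at 1.14 with the length and GC trend removed, at 1.64 without MEIS2 replicate 1 and at 1.04 without MEIS2 replicate 2.

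SPARC binds collagen and calcium and loosens cell contacts with the matrix. Sparc (chromosome 11, 55285326 to 55314009, minus strand) had 23062 and 23380 counts, or 1476 and 1392 CPM, in MEIS2 replicates 1 and 2, against 25484 and 26695 counts, or 1659 and 1641 CPM, in control replicates 1 and 2. Both MEIS2 libraries were lower than both controls, by a log2 fold change of -0.20 (SE 0.33, 95% interval -0.90 to 0.50, adjusted p = 0.8 in edgeR's test). With libraries scaled by their totals alone it stood at -0.05, and the lines then overlapped. Per length, Sparc made up 79.5% and 74.1% of the summed level of the 10 genes in MEIS2 replicates 1 and 2, and 85.4% and 84.8% in control replicates 1 and 2, while Fn1 made up 11.6% and 14.6% in the MEIS2 line and 6.84% and 7.95% in the control line. The Fn1 level per length was 0.146 and 0.197 of that of Sparc in the MEIS2 line, against 0.0801 and 0.0937 in the control line, without overlap (exact permutation p = 0.333, the smallest possible). Fn1 and Sparc are genes of 11685 and 3788 bases. With the length and GC trend removed, their log2 fold changes were 0.34 and -0.17.

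Postn, which encodes a protein that links collagen and tenascin C, was not detectable at this depth. It had 0 and 2 counts in MEIS2 replicates 1 and 2 and 0 and 0 counts in control replicates 1 and 2, all under the floor of 3 counts, which is worth 0.179 to 0.195 CPM per library. No fold is given. Such floors, and the interval given for Dcn, cover counting error only.

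With all 4 libraries in edgeR's fit, versican had the highest log2 fold change of the 8 members tested, and its size depended on 1 library. Vcan (chromosome 13, 89803431 to 89890628, minus strand) had 403 and 1295 counts, or 25.8 and 77.1 CPM, in MEIS2 replicates 1 and 2, against 238 and 325 counts, or 15.5 and 20.0 CPM, in control replicates 1 and 2. MEIS2 replicate 2 was 2.99 times MEIS2 replicate 1, while the controls differed by 1.29 times. The lines did not overlap, and the log2 fold change was 1.54 (SE 0.46, 95% interval 0.56 to 2.52, adjusted p = 0.277 in edgeR's test), with 2.06% of tested genes higher. It was 0.50 without MEIS2 replicate 2 and 2.11 without MEIS2 replicate 1. With the length and GC trend removed it was 0.61. Tnc stood above Vcan in limma-voom (1.39 against 1.35) and without control replicate 1 (1.75 against 1.35), and without MEIS2 replicate 2 Tnc, Thbs1 and Fn1 all did (1.04, 0.71 and 0.55 against 0.50). With all 4 libraries and no filter on low counts, Vcan passed (1.5, adjusted p = 0.0129 in edgeR's test), the 1 member to do so. In that fit 1.24% of 21576 genes were called higher. Gm4117, a non-coding gene annotated on the opposite strand within Vcan, had 9 and 36 counts in MEIS2 replicates 1 and 2 and 12 and 17 in control replicates 1 and 2; the sources used here do not say whether the counting used strand, so reads of that region could belong to either gene.

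Perlecan is encoded by Hspg2 (chromosome 4, 137196080 to 137297941, plus strand), a gene of 14739 bases against 14462 for Vcan, but with a GC content of 60.9% against 43.7%. Hspg2 had 7307 and 8994 counts, or 467.7 and 535.6 CPM, in MEIS2 replicates 1 and 2, against 7223 and 7078 counts, or 470.2 and 435.2 CPM, in control replicates 1 and 2. The lines overlapped. Its log2 fold change of 0.15 (SE 0.31, 95% interval -0.51 to 0.81, adjusted p = 0.849 in edgeR's test) became -0.27 with the length and GC trend removed and 0.0044 without MEIS2 replicate 2. Per length, Vcan was 0.0562 and 0.147 of Hspg2 in the MEIS2 line, against 0.0336 and 0.0468 in the control line, without overlap (exact permutation p = 0.333, the smallest possible). The ratio of Vcan to Fn1 overlapped between the lines, with 0.0314 and 0.0736 in the MEIS2 line and 0.0305 and 0.0340 in the control line (exact permutation p = 0.667).

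The small leucine-rich proteoglycans were low in both lines. Bgn (chromosome X, 72527208 to 72539539, plus strand) had 42 and 47 counts, or 2.69 and 2.80 CPM, in MEIS2 replicates 1 and 2, against 57 and 52 counts, or 3.71 and 3.20 CPM, in control replicates 1 and 2. Both MEIS2 libraries were lower, with a log2 fold change of -0.33 (SE 0.47, 95% interval -1.33 to 0.67, adjusted p = 0.774 in edgeR's test), and of -0.54 with the length and GC trend removed. Dcn (chromosome 10, 97315471 to 97354005, plus strand) had 3 and 8 counts in MEIS2 replicates 1 and 2 and 5 and 10 in control replicates 1 and 2, too few to be tested. From 11 counts in the MEIS2 line and 15 in the control line its ratio was 0.715, with an exact 95% interval for counting error of 0.297 to 1.67. The ratio of Bgn to Sparc per length overlapped between the lines, with 0.00113 and 0.00125 in the MEIS2 line and 0.00139 and 0.00121 in the control line (exact permutation p = 0.667).

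**Figure D2:**
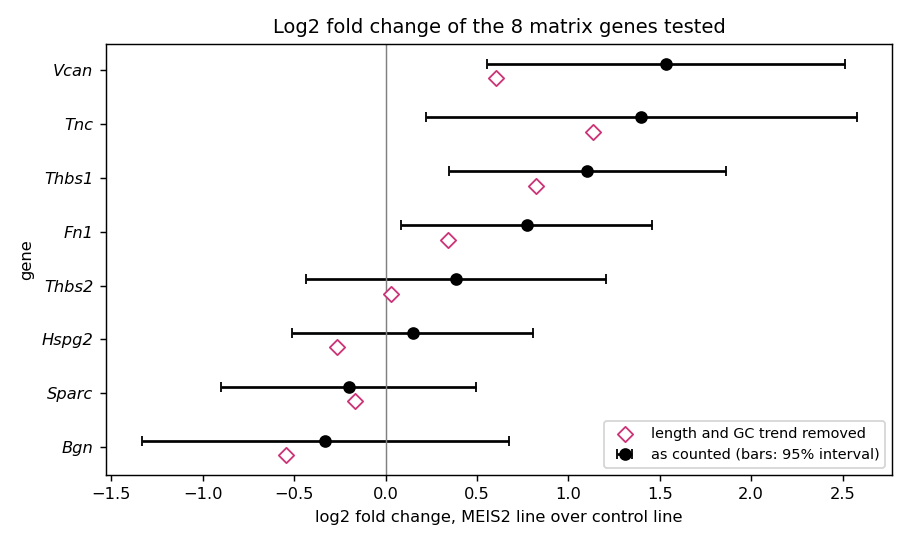
Log2 fold change of the MEIS2 line over the control line for the 8 members tested, in filled circles with their 95% intervals, and after removal of each library's dependence on length and GC content, in open diamonds. The intervals of Vcan, Tnc, Thbs1 and Fn1 lie above 0 as counted, and the diamond of Vcan lies at 0.61 where its circle lies at 1.54.

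As a group, 8 of the 10 members had enough counts to be tested, and Dcn and Postn did not. Of the 8, 0 passed edgeR's test at an adjusted p under 0.05, where 0.00781% of all tested genes were called higher and 0% lower. DESeq2 gave no adjusted p for Tnc and Bgn and called 0 of the other 6, against 0.76% of genes higher and 0.011% lower. By limma-voom 0 members passed, against 0.00781% of genes. At an unadjusted p under 0.05, 4 members (Fn1, Vcan, Thbs1 and Tnc) were higher and 0 lower, against 9.79% of tested genes higher and 0.414% lower. A fitted level above the controls was found for 6 of 8, against 50.9% of tested genes. In TMM-scaled CPM, both MEIS2 libraries were above both controls for 5 members (Fn1, Vcan, Thbs1, Thbs2 and Tnc), against 22.6% of tested genes. They were below both for Sparc and Bgn, against 19.1%. The median log2 fold change was 0.58 over the 8 members and 0.01 over all tested genes. All of this describes members that were proposed with results of these data in view.

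**Figure D3:**
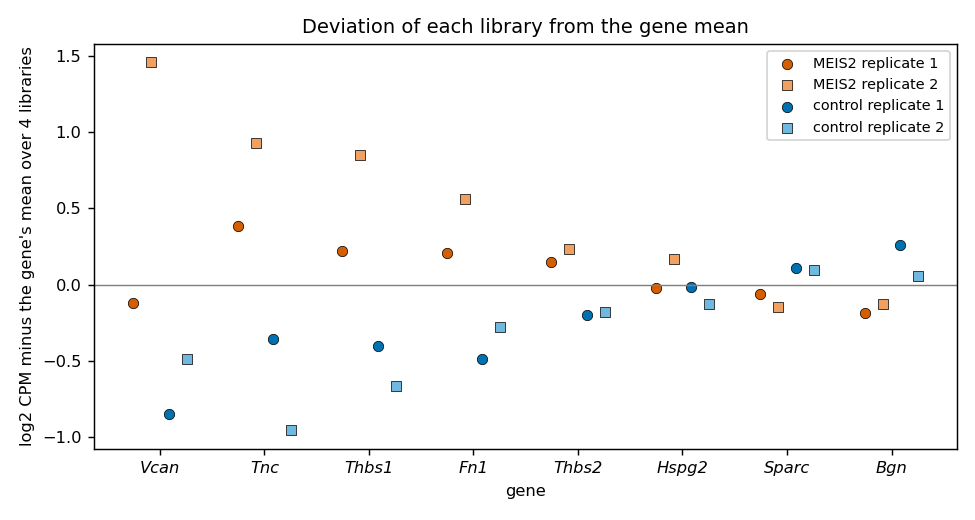
Deviation of each library's log2 CPM (prior count 2) from the mean of the gene over the 4 libraries, for the 8 members tested; symbols and colours mark the libraries as named in the legend. MEIS2 replicate 2 is the highest library for Vcan (1.46), Tnc (0.93), Thbs1 (0.85), Fn1 (0.56), Thbs2 (0.23) and Hspg2 (0.17).

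Sparc and Bgn ran against most of the other members and Hspg2 overlapped, which a median over the 8 does not show. The median deviation from the gene mean was 0.06 and 0.40 on the log2 scale in MEIS2 replicates 1 and 2, and -0.28 and -0.23 in control replicates 1 and 2. Over all tested genes those medians lay between -0.07 and 0.04. The members are also long, with a median of 7388 bases over the 8 tested against 4219 over all tested genes. Their median GC content was 51.9%, against 49.7% over all tested genes. Across tested genes, which are not independent replicates, the log2 fold change had a Spearman rho of 0.488 with gene length and of -0.421 with GC content. In the fit without the length and GC trend, the median of the members was 0.19 against -0.05 over all tested genes, and Thbs1 and Tnc, of 6073 and 7772 bases, then had the highest values of the 8, at 0.82 and 1.14. In that fit 0 members passed (lowest adjusted p = 0.379), nor did Meis2, at 3.65 (SE 0.32, adjusted p = 0.0882, edgeR); with the length trend alone removed, Meis2 stood at 3.67 and passed (adjusted p = 0.00804, edgeR).

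**Figure D4:**
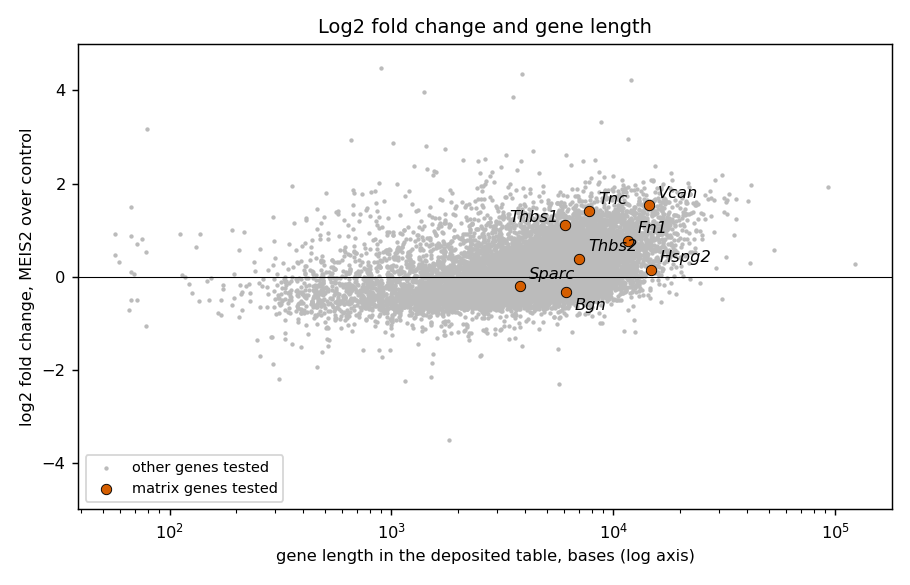
Log2 fold change of the MEIS2 line over the control line against the gene length given in the deposited table (log axis), with the 8 members tested in orange and all other tested genes in grey; 1 gene lies outside the vertical axis. Vcan and Hspg2, of 14462 and 14739 bases, lie at 1.54 and 0.15.

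Leaving out MEIS2 replicate 2 brought the median of the members to 0.40, and leaving out MEIS2 replicate 1 to 0.67. All 8 kept the sign of their fold change in each of the 4 fits without a library. Nearly no gene of any kind passed without MEIS2 replicate 2, so the lack of calls there is not particular to the members. With MEIS2 replicate 2 left out 0 members passed (adjusted p = 1 for each), and with MEIS2 replicate 1 left out 3 (Vcan, Thbs1 and Tnc) passed as higher and 0 as lower, against 14.2% of 13395 tested genes higher and 3.8% lower, in a fit whose spread comes from the controls alone and assumes that the lone MEIS2 library varies like them.

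**Figure D5:**
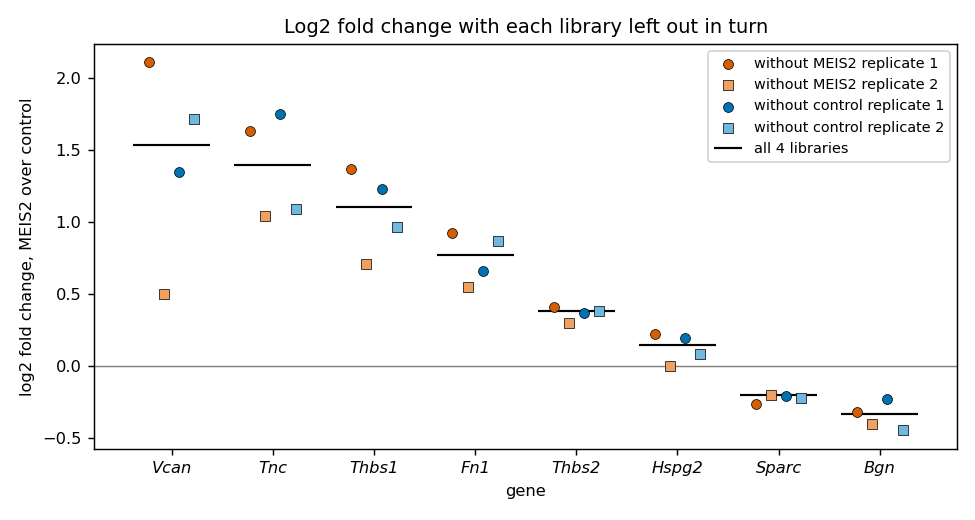
Log2 fold change of the 8 members tested with each library left out in turn (symbols) and with all 4 libraries (lines). Vcan ranges from 0.50 without MEIS2 replicate 2 to 2.11 without MEIS2 replicate 1, whereas Thbs2 ranges from 0.30 to 0.42.

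Sharing of reads with other loci was looked for only through long matches between annotated transcripts, and shorter shared stretches were not sought. No other annotated gene had a transcript match of at least 150 bases at 90% identity or more to the longest transcript of any member, apart from Apol7d for Fn1. Apol7d lies over Fn1 on the opposite strand in the deposited table and had 2 and 2 counts in the MEIS2 line and 1 and 2 in the control line, against 38600 counts of Fn1 in all.

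Around the members, 69 other matrix glycoproteins and proteoglycans were listed, of which 27 could be tested. Their fitted level was higher for 18 and lower for 9, against 50.9% of all tested genes higher. Their median was 0.11 on the log2 scale, against 0.01 over all tested genes. EdgeR's test and limma-voom called 0. DESeq2 called 1 of the 20 to which it gave an adjusted p, against 0.76% of genes higher and 0.011% lower. At an unadjusted p under 0.05 in edgeR's test, 3 were higher and 0 lower, against 9.79% and 0.414% of all tested genes. The gene DESeq2 called, Nid1 (adjusted p = 0.0357 there), encodes nidogen 1, which joins laminin to collagen IV and perlecan in basement membranes. Nid1 had 74.2 and 125.2 CPM in MEIS2 replicates 1 and 2, against 34.7 and 38.8 CPM in control replicates 1 and 2, or 1.44 as a log2 fold change (SE 0.34, adjusted p = 0.256 in edgeR's test). Ogn, a small leucine-rich proteoglycan like Bgn and Dcn, had 10.8 and 83.1 CPM in MEIS2 replicates 1 and 2, against 15.8 and 16.5 CPM in control replicates 1 and 2, so 1 library carried its log2 fold change of 1.54, which was -0.62 without it. The highest levels per length were those of Ecm1, a secreted glycoprotein that binds perlecan, and Spp1, which encodes osteopontin. Ecm1 had 1501 and 1023 CPM in the MEIS2 line, against 2084 and 1507 CPM in the control line. Spp1 overlapped between the lines, with 154.8 and 253.7 CPM in the MEIS2 line, against 144.4 and 199.7 CPM in the control line.

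Of 43 listed genes that build, sulfate or trim glycosaminoglycan chains 33 were tested, 22 of them higher and 11 lower as fitted (median log2 fold change 0.28). Of all tested genes, 50.9% were fitted higher. EdgeR's test and limma-voom called 0 of 33, and DESeq2 0 of the 27 to which it gave an adjusted p. At an unadjusted p under 0.05 in edgeR's test, 2 were higher and 0 lower, against 9.79% and 0.414% of all tested genes. Chsy1, which polymerises chondroitin, had 18.8 and 27.0 CPM in the MEIS2 line, against 8.79 and 9.22 CPM in the control line (log2 fold change 1.35, SE 0.39, adjusted p = 0.277 in edgeR's test). Chst11, which sulfates it, had 16.7 and 23.1 CPM in the MEIS2 line, against 8.92 and 8.67 CPM in the control line (1.18, SE 0.39, adjusted p = 0.291 in edgeR's test). In the fit without the length and GC trend, Chsy1 stood at 1.42 and Chst11 at 0.96. The most abundant per length, Chpf and B3gat3, which extend the chain and complete its linker to the core protein, overlapped between the lines at log2 fold changes of -0.42 and -0.56.

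Of 22 listed cell surface receptors of the member proteins 15 were tested, and 0 were called by the 3 tools. A higher fitted level was found for 11 and a lower for 4 (median log2 fold change 0.44), against 50.9% of all tested genes higher. At an unadjusted p under 0.05 in edgeR's test, 2 were higher and 0 lower, against 9.79% and 0.414% of all tested genes. Itgav, the integrin chain that binds fibronectin and thrombospondin through their RGD sites, had 44.5 and 95.9 CPM in the MEIS2 line, against 22.9 and 26.4 CPM in the control line (1.51, SE 0.39, adjusted p = 0.256 in edgeR's test), and stood at 0.81 without MEIS2 replicate 2. Cd44, the hyaluronan receptor, had 114.7 and 140.7 CPM in the MEIS2 line, against 74.1 and 82.4 CPM in the control line. The most abundant receptor chains per length, Itgb5 and Itga5 (the partner of Itgb1 in the main fibronectin receptor), overlapped between the lines with log2 fold changes of -0.20 and -0.29.

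Of 24 listed enzymes and cofactors that cleave or mature these proteins 16 were tested. As fitted, 10 were higher and 6 lower (median log2 fold change 0.29), against 50.9% of all tested genes higher. EdgeR and limma-voom called 0, and DESeq2 called 0 of the 12 with an adjusted p (it gave none for Adamts9). At an unadjusted p under 0.05 in edgeR's test, 3 were higher and 0 lower, against 9.79% and 0.414% of all tested genes. Adamts9 and Adamts1 encode secreted proteases that cut versican. Adamts9 had 2.94 and 5.96 CPM in the MEIS2 line, against 1.11 and 0.984 CPM in the control line (2.08, SE 0.55, adjusted p = 0.256 in edgeR's test). Adamts1 had 13.8 and 22.8 CPM in the MEIS2 line, against 10.4 and 8.48 CPM in the control line (0.95, SE 0.41, adjusted p = 0.422 in edgeR's test), and stood at 0.50 without MEIS2 replicate 2. Pcolce, a cofactor of procollagen maturation, had 991.7 and 709.1 CPM in the MEIS2 line, against 1467 and 1052 CPM in the control line. Htra1, a secreted serine protease, had 496.6 and 354.9 CPM in the MEIS2 line, against 547.4 and 500.4 CPM in the control line, and neither it nor Pcolce passed (adjusted p = 0.706 and 0.591 in edgeR's test).

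For the genes named from these 4 lists, calls differed with the libraries and the filter. Nid1, Ogn, Chsy1, Chst11, Itgav, Cd44, Adamts9 and Adamts1 were named for the lowest p of their lists in these same libraries. Their calls below follow in part from that choice and cannot be read against the shares of all genes. Without MEIS2 replicate 2 nearly no gene of any kind passed. Without MEIS2 replicate 1, where the shares of all tested genes called were the 14.2% and 3.8% above, Nid1, Ogn, Chsy1, Chst11, Itgav, Adamts9 and Adamts1 passed as higher and B3gat3 as lower, at adjusted p-values of 3.76e-09 for Ogn to 0.0338 for B3gat3 in edgeR's test. With no filter on low counts, against the 1.24% of all genes called higher, Nid1, Ogn, Itgav and Adamts9 passed, at 0.0107 to 0.0148. Without MEIS2 replicate 2, 0 of the genes named from these lists passed (lowest adjusted p = 0.798, for Nid1).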

How the data were processed

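RNA of 2 HT22 lines was sequenced from poly(A)-selected libraries, per the labels' protocols. The authors deposited whole-number counts per gene with a gene length in bases, per the file headers; DESeq2 is named without a version, per the submitters' processing notes, and the sources used here do not give the aligner, counter, strand setting or genome build. After poly(A) selection, RNA integrity bears on the counts of long transcripts. Its part in these data was not tested. Counts were tested in R 4.3.3 with edgeR 4.0.16: filterByExpr, TMM scaling, and the quasi-likelihood F test on the line, with Benjamini-Hochberg adjustment over 12802 genes and a threshold of 0.05. SE is the log2 fold change divided by the square root of F, and 95% intervals use the fit's t distribution. Alternatives were other scalings and filters, DESeq2 1.42.0, limma-voom (limma 3.58.1), the replicate number as a block, each library left out, and a smooth trend of each library on length, or length and GC content, removed (mgcv 1.9.3; GC of the longest GENCODE M21 transcript, found for 98.9% of tested genes). Near-identical transcripts were sought with BLAST+ 2.17.0. Only the edgeR fit was tested on simulated data. A minimum share of changed genes called was required only at a spread lower than that of these data. Named genes are Meis2, the 10 members, and from each of 4 related lists the 2 highest per length and the 2 with the lowest p, all matched by symbol. The members and lists were chosen with earlier results of these data known. The 2 libraries of a line differed beyond counting error (chi-square over its degrees of freedom 61.3 in the MEIS2 line and 24.7 in the control line). Each was counted as 1 replicate, though that spread may be technical.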

Additional observations from a re-analysis of the deposited data

How the results depend on the processing

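With 2 libraries a line and a biological coefficient of variation of 27.95%, the SE of a member's log2 fold change ran from 0.31 to 0.55. Genes past the threshold numbered 1 higher and 0 lower as fitted, 268 and 3 with no filter on low counts (where 1 member, Vcan, passed), 69 and 1 with DESeq2, 0 higher with the length and GC trend removed, and 1 to 1902 higher and 0 to 509 lower with a library left out (0 to 3 members). The replicate number as a block gave 1884 higher, 913 lower and 4 members (Fn1, Vcan, Thbs1 and Tnc) of 12802 genes, and of the genes named from the related lists Nid1, Ogn, Chsy1, Chst11, Itgav, Cd44, Adamts9 and Adamts1 higher and B3gat3 and Pcolce lower (adjusted p-values up to 0.0482 in edgeR's test). The block together with removal of the length and GC trend gave 1242, 1737 and 3 (Fn1, Vcan and Thbs1). The difference between replicates 1 and 2 in the MEIS2 line correlated over genes with that in the control line (r = 0.529). That is 1 difference per line, and nothing in the labels says that a number marks a shared culture. The block therefore rests on a number alone. The median of the members moved to 0.14, 0.19 and 0.18 on removal of the length trend, of the length and GC trend, and of both trends with the block. Hspg2 changed sign in those fits (-0.58, -0.27 and -0.27), Itgb5 stood at 0.02775 and 0.02801 in the 2 with GC content, and with a library left out Spp1 ranged from -0.19 to 0.55 and Ogn from -0.62 to 2.35; the cause was not tested. The other 7 members tested kept their sign in every alternative in which they were tested. Scaling by library totals alone moved the median over all tested genes to 0.17, where that of the members was 0.74.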
